A study of Mus musculus with 3 samples.

Results

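Described here are 9 of the 51923 genes in the count matrix, those of cardiac calcium handling and pacemaker channels: Ryr2, Trdn, Casq2, Atp2a2, Pln, Slc8a1, Cacna1c, Cacna1d and Hcn4. The rule that names them is a list of symbols with no threshold on a measured value, and they were followed by stage and genotype in sorted cells of the mouse embryo. Each was read in all 14777 cells and in the 1092 cells with at least 5 Tnnt2 molecules per 10000 counted, called Tnnt2 cells below. Tnnt2 encodes cardiac troponin T, a protein of the contractile filament, so this second set was taken as heart muscle, a label checked below.

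A heartbeat is driven by calcium. Channels in the surface membrane let a little calcium in, this opens ryanodine receptors in the sarcoplasmic reticulum, the internal calcium store, and the released calcium starts contraction. A pump then returns calcium to the store and an exchanger carries it out of the cell, while pacemaker channels of the sinus venosus, the inflow end of the heart tube, set the rate.

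All embryos were C57BL/6 and carried Mesp1-Cre, which makes Cre recombinase in early mesoderm, and Ai9, a reporter that turns on the red protein tdTomato wherever Cre has acted. Controls were Wls fl/+, with 1 floxed copy of Wls, and mutants were Wls fl/fl. Wls (Wntless) carries Wnt proteins to the cell surface, so a cell without it cannot secrete them; control cells too lose a copy where Cre acts. tdTomato-positive cells from E8.0, E8.5 and E9.5 embryos were tagged with MULTI-seq lipid barcodes, pooled, sorted and captured in 3 runs, and the transcripts of single cells were counted as unique molecular identifiers (UMIs). The cells of 1 barcode in 1 run form a barcode sample, named here as in the per-cell table (Bar24 and so on); there were 22 of them, 12 control and 10 mutant. How many embryos stand behind a barcode is not given in the sources used here, so p-values measure the spread between barcode samples, which may be partly technical.

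The matrix held 331587989 UMIs, with a median of 21739 per cell and from 134457 UMIs in Bar6 (6 cells) to 61307782 in Bar3 (2508 cells) per sample. E8.0 had 3 controls and 3 mutants, all in run 1, E8.5 had 2 controls and 1 mutant in run 2, E9.5 had 6 of each over 3 runs, and a single E7.5 control sample of 28 cells entered the fits as a stage of its own. The main comparisons in Tnnt2 cells used the 18 samples with at least 20 such cells: 3 against 3 at E8.0, 1 against 1 at E8.5 and 5 against 5 at E9.5. Wls itself lay at 35.9 to 65.4 UMIs per 1000000 counted (CPM) in the controls of E8.0 to E9.5 and at 3.72 to 14.2 CPM in the mutants, over all cells, and the groups did not overlap. Runs shared 23 cell barcodes. The heart muscle label of the Tnnt2 cells was checked against 9 markers, of which Tnnt2 itself defines the cells. The 8 others were all higher in these cells than in all cells below the Tnnt2 threshold, among them Myh6 (714 against 1.60 CPM) and Ttn (3547 against 11.3 CPM). Smooth muscle markers were also higher, 4 of 4 (summed 5968 against 157 CPM), as were 3 of 4 skeletal muscle markers (23.1 against 5.51 CPM), while the 5 endothelial and 5 blood markers were all lower. A Myod1, Myog or Myf5 UMI was seen in 8 of the 1092 cells.

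Each member was concentrated in the Tnnt2 cells, which were 7.39% of the cells. They held 96.5% of the UMIs of Trdn, 86.2% of Slc8a1, 78.3% of Pln, 72.5% of Ryr2, 59.4% of Cacna1d, 54.0% of Casq2, 52.3% of Hcn4, 39.7% of Cacna1c and 28.3% of Atp2a2. Pooled over samples, the CPM in Tnnt2 cells was 334 times that of the 11274 cells that were neither Tnnt2 nor globin-rich (under 100 globin UMIs per 10000) for Trdn and 70.9 times for Slc8a1. For Atp2a2 it was 4.69 times. An Atp2a2 UMI was found in 96.9% of the Tnnt2 cells, 84.8% of those other cells and 61.1% of the globin-rich cells, and with cells thinned to 5000 UMIs in 85.5%, 45.8% and 20.4%.

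A UMI of Ryr2 was found in 86.1% of the Tnnt2 cells (exact 95% binomial interval 83.9 to 88.1%) and in 3.11% of the 2411 globin-rich cells, which should lack it and serve as background for free RNA; the medians were 20854 and 27237 UMIs per cell. Slc8a1 was seen in 87.1% against 3.15%, Hcn4 in 36.6% against 0.788%, Trdn in 35.4% against 0.207% and Pln in 14.7% against 0.498%. Casq2 was found in only 24 Tnnt2 cells (2.20%, interval 1.41 to 3.25%). These intervals cover counting error only. With each cell thinned to 5000 UMIs, leaving out 50 shallower Tnnt2 cells, the shares fell to 59.0% for Ryr2, 70.0% for Slc8a1 and 16.8% for Hcn4 in Tnnt2 cells and to 0.817%, 0.859% and 0.129% in globin-rich cells.

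From E8.0 to E9.5 most of the members that could be tested changed level in the Tnnt2 cells. In edgeR's quasi-likelihood test with Benjamini-Hochberg adjustment over all genes, 8 members could be tested; Pln, Trdn, Slc8a1, Cacna1c and Ryr2 rose, Cacna1d and Hcn4 fell, and Atp2a2 did not pass an adjusted p of 0.05. Of all 10842 genes tested, 24.0% passed. Pln could be tested only through the later samples, where it was high, so its call is no support for its rise. The median log2 change was 0.45 over the 8 members and -4.82e-05 over all genes. The share of Tnnt2 cells with at least 5 Myl2 UMIs per 10000, Myl2 being the ventricular myosin light chain, also moved with stage, from a mean of 10.3% in controls and 19.4% in mutants at E8.0 to 37.9% and 50.8% at E9.5. All E8.0 samples were in run 1, and within run 1 alone the log2 changes were 2.84 for Pln, 1.90 for Trdn, 0.61 for Slc8a1, 0.54 for Ryr2 and -0.59 for Cacna1d, all called, and 0.44 for Cacna1c and -0.30 for Hcn4, which were not. Markers of other cells moved with stage as well. The 4 smooth muscle markers summed to 2647 to 5132 CPM in the E8.0 samples and 6785 to 8837 CPM in those of E9.5, which did not overlap. The 5 blood markers, mostly embryonic globins, summed to 1188 to 1364 CPM in the E8.0 samples and 1320 to 13288 CPM in those of E9.5, and the 4 skeletal muscle markers to 0 to 1.41 and 0 to 91.3 CPM. The part of smooth muscle markers and blood RNA in the stage changes was not tested. Without the cells holding a Myod1, Myog or Myf5 UMI, an alternative chosen after seeing the data, Hcn4 was -0.40 and lost its call (edgeR adjusted p = 0.0512), and the other 6 kept theirs. The median depth of a Tnnt2 cell was 23956 to 26640 UMIs at E8.0 and 8989 to 22174.5 at E9.5.

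**Figure D1:**
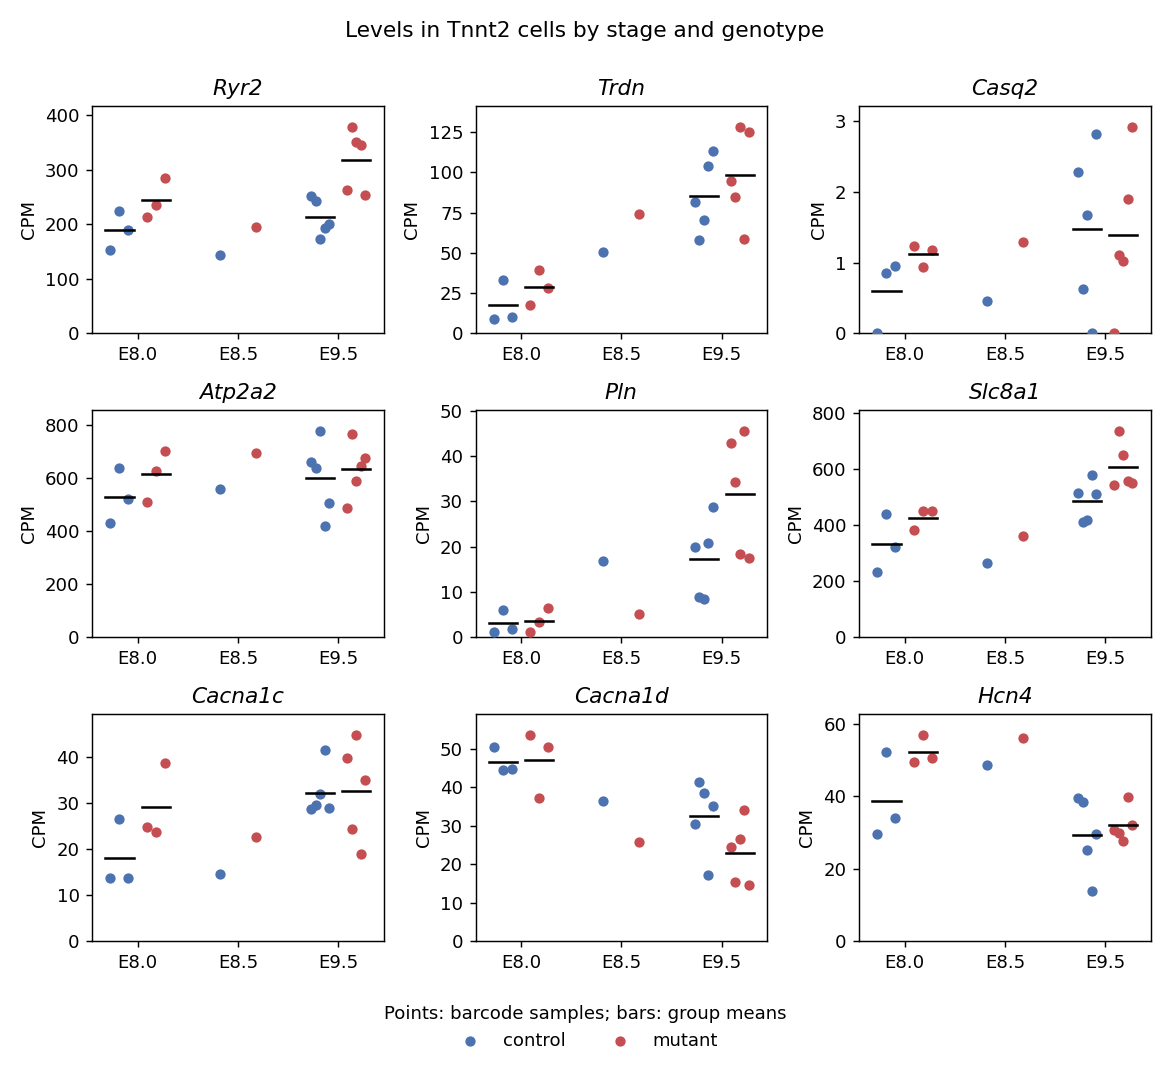
Level of each member in Tnnt2 cells, in UMIs per 1000000 (CPM), with 1 point per barcode sample (blue control, red mutant) and a bar for the mean of each group. Pln and Trdn lay higher in all 10 E9.5 samples than in all 6 E8.0 samples, and Ryr2 in all 5 E9.5 mutants lay above the 5 controls. How many of all genes separate like this was not counted, so these are descriptions only.

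Ryr2 encodes the cardiac ryanodine receptor, the release channel of the store. It lies at chr13:11553102-12106945 on the minus strand (GRCm38, GENCODE M21). In Tnnt2 cells the E8.0 controls Bar24, Bar26 and Bar29 had 152, 224 and 190 CPM, while the mutants Bar25, Bar27 and Bar28 had 214, 235 and 285 CPM. The E8.5 control stood at 143 and the mutant at 194 CPM. The E9.5 controls Bar22, Bar23, Bar4, Bar7 and Bar9 had 253, 243, 173, 194 and 200 CPM, the mutants Bar19, Bar20, Bar21, Bar8 and Bar10 had 378, 350, 346, 254 and 263 CPM. The stages overlapped widely, since the E9.5 controls lay in the range of E8.0. The mean went from 217 ± 44.6 (SD, n = 6) to 265 ± 70.8 CPM (n = 10), a fitted log2 change of 0.37 (SE 0.11, edgeR adjusted p = 0.0171). Restricted to cells with at least 20 Tnnt2 UMIs per 10000 it was 0.16 and no longer passed (adjusted p = 0.451). It also missed the threshold on either side of 5 Myl2 UMIs per 10000, at 0.24 below it (edgeR adjusted p = 0.152) and 0.20 above (adjusted p = 0.609). Stage fits by Myl2, here and below, used fewer samples. Below 5 Myl2 UMIs there were 6 of each stage with at least 20 such cells. Above it there were 9 of E9.5 and 3 of E8.0 with at least 10, the latter all mutants (Bar25, Bar27 and Bar28).

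Trdn encodes triadin, which ties the ryanodine receptor to the calcium-binding protein inside the store (chr10:33080554-33476709, plus strand). Its E8.0 controls held 8.64, 33.4 and 10.4 CPM, its mutants 17.9, 39.6 and 28.2 CPM, in the sample order given for Ryr2. The E8.5 samples had 50.5 CPM in the control and 74.2 in the mutant. Levels at E9.5 were 81.8, 57.9, 70.4, 104 and 113 CPM for controls, and 84.9, 128, 58.9, 125 and 94.9 CPM for mutants. No E9.5 sample was as low as the highest E8.0 sample, a description only, since the share of all genes so separated was not counted. The 2 samples of E8.5 fell in between or level with the lower E9.5 ones. The rise from 23.0 ± 12.7 to 91.9 ± 25.6 CPM was a log2 change of 2.07 (SE 0.24, edgeR adjusted p = 1.54e-06). In the Tnnt2 cells with at least 5 Myl2 UMIs per 10000 it was 0.92 and did not pass (adjusted p = 0.0528), and in the others it was 1.79 (adjusted p = 0.00264).

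Casq2, the cardiac calsequestrin that stores calcium at the release site (chr3:102086415-102146514, plus strand), was rarely counted: 27 UMIs over all Tnnt2 cells, with 0 to 2 per sample at E8.0 and 0 to 5 at E9.5. It did not pass the low-count filter of any comparison. Fitted without that filter, its genotype difference was 0.24 over all cells (SE 0.46, edgeR adjusted p = 0.856) and 0.19 in Tnnt2 cells (SE 0.62, adjusted p = 0.960). Casq1, the calsequestrin best known from skeletal muscle, was counted 1753 times in the same cells, at 38.7 ± 17.6 CPM at E8.0 (n = 6) and 119 ± 25.4 CPM at E9.5 (n = 10), a log2 change of 1.66 (SE 0.20, edgeR adjusted p = 2.86e-06). All 10 E9.5 samples (81.7 to 170 CPM) lay above the 6 of E8.0 (13.6 to 63.6 CPM), a separation not counted over all genes. UMIs of the 2 genes were not scaled by transcript length, and the skeletal muscle marker sum in these cells, 0 to 1.41 CPM at E8.0 and 0 to 91.3 CPM at E9.5, moved with stage too; its part in the Casq1 change was not tested.

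Atp2a2 encodes SERCA2, the pump that refills the store (chr5:122453513-122502225, minus strand). In Tnnt2 cells it ranged from 430 to 703 CPM over the 6 samples of E8.0, was 560 and 695 CPM at E8.5, and ranged from 419 to 778 CPM over the 10 samples of E9.5. The stages overlapped fully, at 571 ± 101 and 616 ± 117 CPM, and the log2 change of 0.19 (SE 0.12) did not pass (edgeR adjusted p = 0.254).

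Pln encodes phospholamban, the small membrane protein that holds the pump back (chr10:53337667-53345987, plus strand). The 250 bases before its RefSeq start are shown because Pln had the largest fitted stage change of the members; capitals mark GATAA or its reverse complement TTATC, a core of GATA factor sites, and AAGTG, a core of NKX2-5 sites.
Pln promoter, chr10:53337436-53337685, plus strand, GRCm38.p6: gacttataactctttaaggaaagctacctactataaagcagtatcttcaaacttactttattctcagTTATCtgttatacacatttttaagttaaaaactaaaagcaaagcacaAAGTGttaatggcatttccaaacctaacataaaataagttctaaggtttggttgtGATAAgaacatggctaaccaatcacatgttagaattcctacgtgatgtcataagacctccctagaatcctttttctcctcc
The window holds 2 GATA matches, 183 and 81 bases before the start, and 1 NKX2-5 match 136 bases before it. On either strand GATAA occurs in 22.6% and AAGTG in 40.7% of the same 250-base windows of 32817 RefSeq promoters, so such matches are common.

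In Tnnt2 cells Pln was near its floor at E8.0, with 1.23, 6.00 and 1.89 CPM in the controls and 1.24, 3.30 and 6.46 CPM in the mutants (1 to 11 UMIs each). At E8.5 the control had 16.8 CPM and the mutant 5.16. Controls of E9.5 held 20.0, 8.81, 8.38, 20.8 and 28.8 CPM, mutants 34.2, 18.3, 45.6, 17.5 and 42.8 CPM. Every E9.5 sample was above every E8.0 sample, with a wide spread within E9.5. How many of all genes separate in this way was not counted, so this is a description only. The mean went from 3.35 ± 2.36 to 24.5 ± 13.0 CPM, a log2 change of 2.87 (SE 0.41, edgeR adjusted p = 2.19e-05). No E8.0 sample was high enough to count towards the low-count filter, so Pln was tested only through later samples, where it was high. Its call is therefore no support for the rise, which is described by the sample levels alone. The ratio of Pln to Atp2a2 was not tested. Pln lies inside Cep85l on the opposite strand, and whether counting used strand is not given in the sources used here; Cep85l had 0 to 11.1 CPM in these samples and no E9.5 value above the E8.0 maximum.

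Slc8a1 encodes NCX1, the exchanger that trades calcium for sodium at the surface membrane (chr17:81373105-81738377, minus strand). It overlaps the coding gene Gm11096, whose counts were not examined here, and the part of shared reads was not tested. Its promoter is shown beside that of Pln because both genes rose with stage and, below, with Myl2; capitals mark GATAA or TTATC and the overlapping TATTTTTA, the reverse complement of TAAAAATA, a core of MEF2 sites.
Slc8a1 promoter, chr17:81738388-81738637, minus strand, GRCm38.p6: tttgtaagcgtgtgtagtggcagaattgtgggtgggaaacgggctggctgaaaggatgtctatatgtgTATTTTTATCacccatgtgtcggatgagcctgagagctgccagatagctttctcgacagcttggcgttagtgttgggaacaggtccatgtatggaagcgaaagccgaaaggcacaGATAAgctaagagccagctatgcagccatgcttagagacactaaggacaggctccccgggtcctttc
It holds 2 GATA matches, 177 and 67 bases before the start, and 1 MEF2 match at 182 bases that shares letters with the first of them. TAAAAATA is found in 2.46% of the promoter windows. The Ryr2 window of the same length held none of the motifs searched.

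For Slc8a1 the E8.0 controls had 235, 441 and 323 CPM in Tnnt2 cells, against the mutants' 382, 452 and 450 CPM. Levels at E8.5 were 265 CPM in the control and 362 in the mutant. The E9.5 controls reached 516, 411, 419, 578 and 513 CPM, the mutants 738, 652, 558, 551 and 545 CPM. All but 2 of the E9.5 samples, the controls Bar23 and Bar4, exceeded the E8.0 samples. The log2 change of 0.61 (SE 0.12) passed (edgeR adjusted p = 0.000491), but in cells with at least 20 Tnnt2 UMIs per 10000 it was 0.30 and did not (adjusted p = 0.0789). Nor did it pass in the Tnnt2 cells with at least 5 Myl2 UMIs per 10000 (0.12, edgeR adjusted p = 0.694), while in the others it was 0.52 (adjusted p = 0.00652).

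Cacna1c and Cacna1d encode the pore subunits CaV1.2 and CaV1.3 of the L-type calcium channel, the former the main channel of working muscle and the latter known from the sinus node. They lie at chr6:118587240-119196418 and chr14:30039939-30491455, both on the minus strand. Cacna1c went from 23.5 ± 9.35 CPM at E8.0 (13.6 to 38.7) to 32.3 ± 8.03 at E9.5 (19.0 to 44.8), and Cacna1d from 46.9 ± 5.94 (37.2 to 53.8) to 27.8 ± 9.75 CPM (14.6 to 41.5). The ranges of both genes overlapped between the stages. The log2 change was 0.54 for Cacna1c (SE 0.19, edgeR adjusted p = 0.0436) and -0.63 for Cacna1d (SE 0.16, adjusted p = 0.00457). With run as a term Cacna1c was 0.43 and no longer passed (adjusted p = 0.168), while Cacna1d was -0.61 and did (adjusted p = 0.0171). The sign of Cacna1c differed by Myl2: it was -0.54 in the Tnnt2 cells with at least 5 Myl2 UMIs per 10000 (adjusted p = 0.377) and 0.97 in the others (adjusted p = 0.0162). The fall of Cacna1d was -1.40 in Tnnt2 cells with at least 5 Myl2 UMIs per 10000 (adjusted p = 0.0467), but -0.05 in the others, where the call was lost (adjusted p = 0.900). Both genes touch neighbours that could share reads if counting ignored strand, Dcp1b for Cacna1c, and Chdh and Dcp1a for Cacna1d. From E8.0 to E9.5 Dcp1b went from 41.9 ± 16.9 to 38.6 ± 14 CPM, Chdh from 7.64 ± 3.84 to 2.42 ± 2.52 CPM and Dcp1a from 14.8 ± 2.24 to 11.6 ± 2.43 CPM.

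Hcn4 encodes the main pacemaker channel, which opens when the membrane is hyperpolarised (chr9:58823412-58863175, plus strand). Its promoter window is given for contrast with those of Pln and Slc8a1, since Hcn4 went the other way from them in the division of Tnnt2 cells by Myl2 below; the capitals ACACC are the reverse complement of GGTGT, a core of T-box sites.
Hcn4 promoter, chr9:58822699-58822948, plus strand, GRCm38.p6: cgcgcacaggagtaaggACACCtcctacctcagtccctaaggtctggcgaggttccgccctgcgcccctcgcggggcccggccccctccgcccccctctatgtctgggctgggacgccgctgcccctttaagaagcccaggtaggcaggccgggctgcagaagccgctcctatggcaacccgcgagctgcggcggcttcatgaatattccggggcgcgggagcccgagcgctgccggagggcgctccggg
The match lies 233 bases before the RefSeq start and no other motif searched was found in the window. GGTGT occurs in 36.2% of the promoter windows. Cacna1d, also lower with Myl2 below, held a GATA match 157 bases before the start in the window chr14:30491157-30491406. Its other window held none of the motifs, and Trdn had no RefSeq window. Whether the motifs go with the direction of change was not tested.

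In Tnnt2 cells the E8.0 controls had 29.6, 52.3 and 34.0 CPM of Hcn4, the mutants 49.4, 57.0 and 50.5 CPM, and the E8.5 samples 48.6 and 56.1 CPM. The E9.5 controls lay at 39.5, 38.4, 25.1, 13.9 and 29.5 CPM, the mutants at 29.8, 27.5, 39.9, 32.1 and 30.6 CPM. The E9.5 samples overlapped 2 of the E8.0 controls and lay below the other 4 samples of E8.0. The log2 change of -0.41 (SE 0.15) just passed (edgeR adjusted p = 0.0451). It was -0.31 with run as a term (adjusted p = 0.186) and -0.30 within run 1 (adjusted p = 0.221), where the call was lost. In the Tnnt2 cells below 5 Myl2 UMIs per 10000 it was 0.16, the opposite sign (adjusted p = 0.568), and in those with more Myl2 it was -1.03 (adjusted p = 0.0718).

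**Figure D2:**
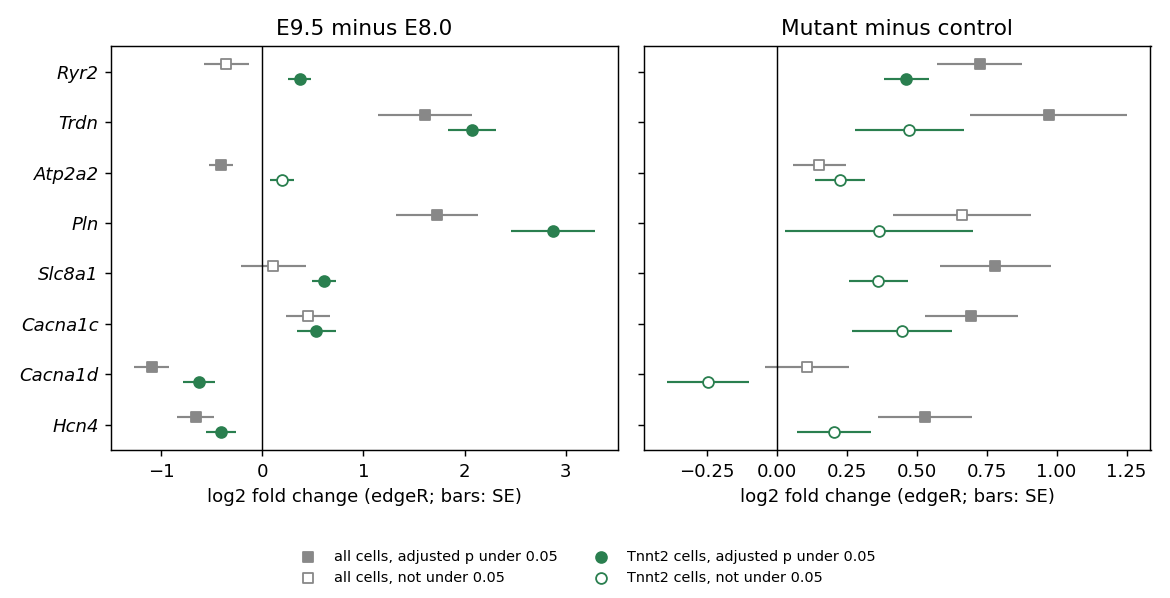
Fitted log2 fold changes of the 8 testable members with their standard errors, for E9.5 minus E8.0 (left) and mutant minus control (right), in all cells (grey squares) and in Tnnt2 cells (green circles); filled symbols have an edgeR adjusted p under 0.05. Pln and Trdn stand furthest right for stage in both cell sets, and Ryr2 is the one member called by this test between genotypes in Tnnt2 cells.

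Over all cells, where fewer heart muscle cells and less RNA per cell cannot be told apart, 2 members rose from E8.0 to E9.5 and 3 fell, with 19.5% of all genes passing. Pln rose by 1.73 (SE 0.41, edgeR adjusted p = 0.00449) and Trdn by 1.61 (SE 0.47, adjusted p = 0.0172) on the log2 scale. Cacna1d fell by 1.09 (SE 0.17, adjusted p = 0.000136), Hcn4 fell by 0.66 (SE 0.18, adjusted p = 0.0126) and Atp2a2 fell by 0.41 (SE 0.12, adjusted p = 0.0183). The call of Trdn was lost with run as a term (0.81, edgeR adjusted p = 0.118) and within run 1 (0.80). Ryr2, not called in the main fit, passed in 1 alternative at -0.49. Blood markers over all cells summed to 4791 to 35948 CPM in the E8.0 samples and 34335 to 211017 CPM in those of E9.5, and their part in these changes was not tested.

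Among Tnnt2 cells several members varied with how much Tnnt2 a cell held. Values are means over the samples with at least 10 cells in a bin. They are given without a test, because Tnnt2 defined the cells. At E9.5, Slc8a1 went from 160 ± 52.6 CPM at 5 to under 20 Tnnt2 UMIs per 10000 to 537 ± 104 at 20 to under 50 and 760 ± 134 at 50 or more. Ryr2 went from 159 ± 87.6 to 248 ± 71.3 and 337 ± 86.9 CPM, and Atp2a2 from 456 ± 138 to 584 ± 152 and 752 ± 172 CPM. At E8.0 the same order held, with Slc8a1 at 105 ± 16.4, 373 ± 84.0 and 709 ± 103 CPM and Ryr2 at 108 ± 26.5, 221 ± 47.8 and 347 ± 46.4 CPM.

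Trdn and Pln had higher means at E9.5 inside the bins as well, though at 5 to under 20 Tnnt2 UMIs the SDs overlapped, with Trdn at 0.610 ± 0.953 and 4.21 ± 4.12 CPM and Pln at 1.87 ± 2.06 and 3.86 ± 5.47 CPM. At 20 to under 50 Tnnt2 UMIs, Trdn had 10.5 ± 6.88 CPM at E8.0 and 97.2 ± 36.2 at E9.5, and at 50 or more 65.3 ± 26.1 and 138 ± 31.2. Pln stayed at 5.24 ± 4.78 and 3.48 ± 3.80 CPM in these bins at E8.0 and reached 22.2 ± 16.5 and 37.2 ± 27.4 at E9.5. In the fit restricted to cells of 20 or more Tnnt2 UMIs per 10000, the stage change was 1.77 for Trdn (edgeR adjusted p = 5.43e-06) and 2.65 for Pln (adjusted p = 0.000592). Pln was near its floor at E8.0 in these cells too, so its call is no support for the rise. Hcn4 showed no rise with Tnnt2, at 45.5 ± 19.7, 52.9 ± 14.7 and 41.8 ± 12.8 CPM at E8.0 and 38.8 ± 21.2, 31.9 ± 9.66 and 24.1 ± 12 at E9.5.

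**Figure D3:**
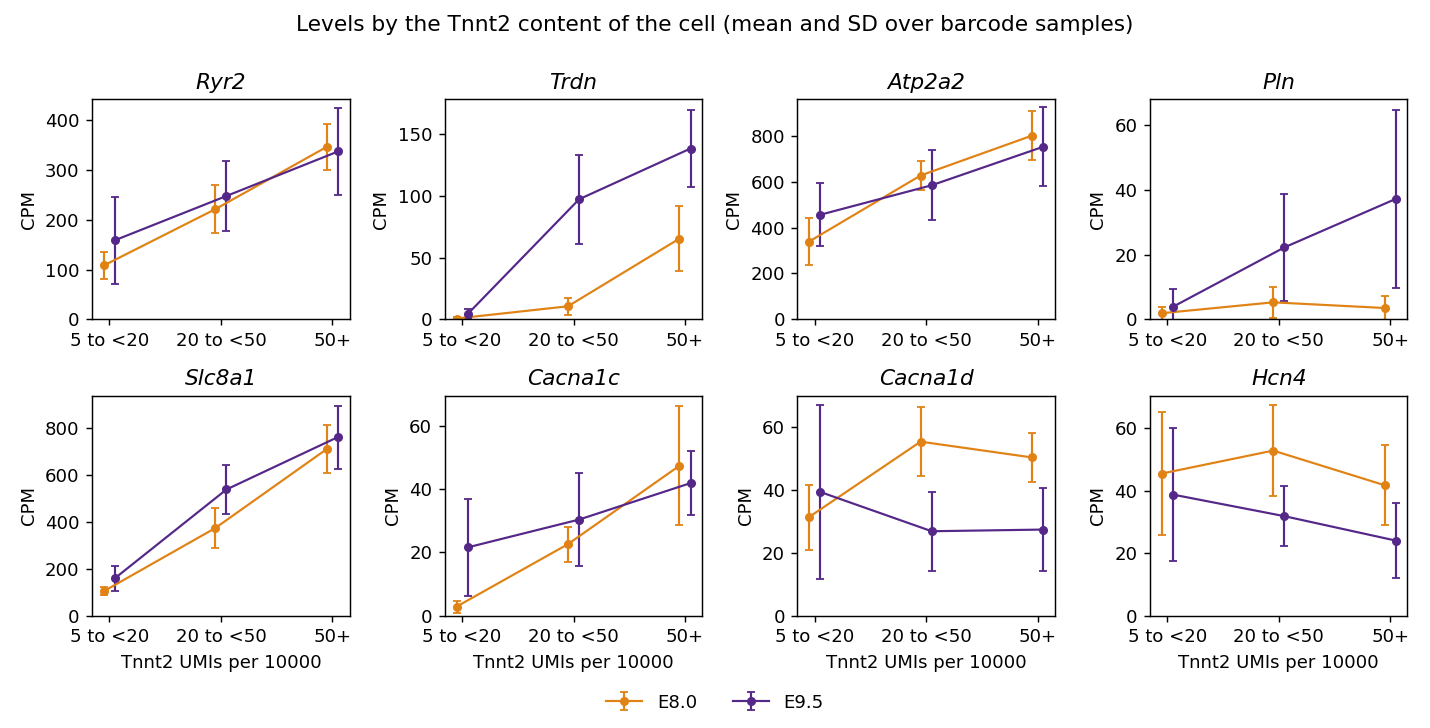
Mean level (CPM, bars SD over barcode samples) of 8 members in Tnnt2 cells of 3 ranges of Tnnt2 UMIs per 10000, at E8.0 (orange) and E9.5 (purple). Ryr2, Atp2a2 and Slc8a1 climb along both lines, Trdn and Pln have higher means at E9.5 in the upper ranges (Trdn 10.5 against 97.2 CPM in the middle range), and Hcn4 does not climb.

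The heart tube holds working muscle of the ventricle and inflow muscle of the sinus venosus, from which the pacemaker forms. Tnnt2 cells were therefore divided within each sample in 2 ways: by Myl2 (at least 5 UMIs per 10000), which marks ventricular muscle, and by a UMI of Shox2, a transcription factor of the sinus venosus. Hcn4 was lower with Myl2 and higher with Shox2. Pln and Trdn were higher with Myl2 and lower with Shox2. In both divisions Pln passed the low-count filter only through the side where it was high, and it could not be tested at matched Tnnt2. With Shox2, Trdn could not be tested at matched Tnnt2 either, and its call depended on the samples and the tool.

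In the 5 samples with at least 20 cells on each side of the Myl2 division, 6 of 8 members passed, Pln among them, against 20.5% of all genes. Hcn4 had 11.2, 17.9, 19.2, 13.5 and 13.8 CPM in the Myl2 cells of Bar3, Bar1, Bar22, Bar9 and Bar20, and 60.7, 74.5, 59.5, 43.6 and 47.4 CPM in their other Tnnt2 cells. The sides did not overlap, and the paired fit gave -1.72 on the log2 scale (SE 0.20, edgeR adjusted p = 4.31e-06). Trdn had 151, 157, 138, 152 and 181 CPM with Myl2 and 18, 34.4, 26.1, 79.2 and 52.4 CPM without (log2 2.18, SE 0.21, edgeR adjusted p = 2.67e-07). Pln had 50.4, 11.9, 33.0, 49.6 and 22.4 CPM with Myl2 and 6.01, 1.91, 7.21, 10.6 and 12.5 CPM without (log2 2.45, SE 0.30, edgeR adjusted p = 7.20e-06). Both were higher with Myl2 in all 5 samples. Pln passed the low-count filter only through the Myl2 side, so its call is no support for the difference. With the filter by group size it was not tested.

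Slc8a1 was also higher with Myl2 in 5 of 5 samples (576 ± 115 against 382 ± 144 CPM, log2 0.80, SE 0.11, edgeR adjusted p = 3.29e-05). Ryr2 was higher in 4 of 5 (260 ± 113 against 192 ± 32.9 CPM, log2 0.52, SE 0.12, edgeR adjusted p = 0.00458). Cacna1d was lower in 5 of 5 (21.3 ± 7.81 against 40.5 ± 8.54 CPM, log2 -0.76, SE 0.24, edgeR adjusted p = 0.0299), a call that was lost when Bar22, Bar9 or Bar20 was left out. Atp2a2 (log2 0.24) and Cacna1c (0.15) did not pass.

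The Myl2 side also held more Tnnt2, with sample medians of 45.3 to 75.0 UMIs per 10000 against 17.3 to 46.4. In an alternative chosen after seeing the data, only cells of 20 to under 50 Tnnt2 UMIs per 10000 were compared, in 9 samples with at least 5 cells on each side. Hcn4 was then -1.57 (edgeR adjusted p = 0.00109), Cacna1d -1.81 (adjusted p = 0.00171) and Trdn 2.02 (adjusted p = 4.98e-07). Slc8a1 and Ryr2 were both 0.15 and no longer passed (adjusted p = 0.399 and 0.528), and Pln was too low to be tested.

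**Figure D4:**
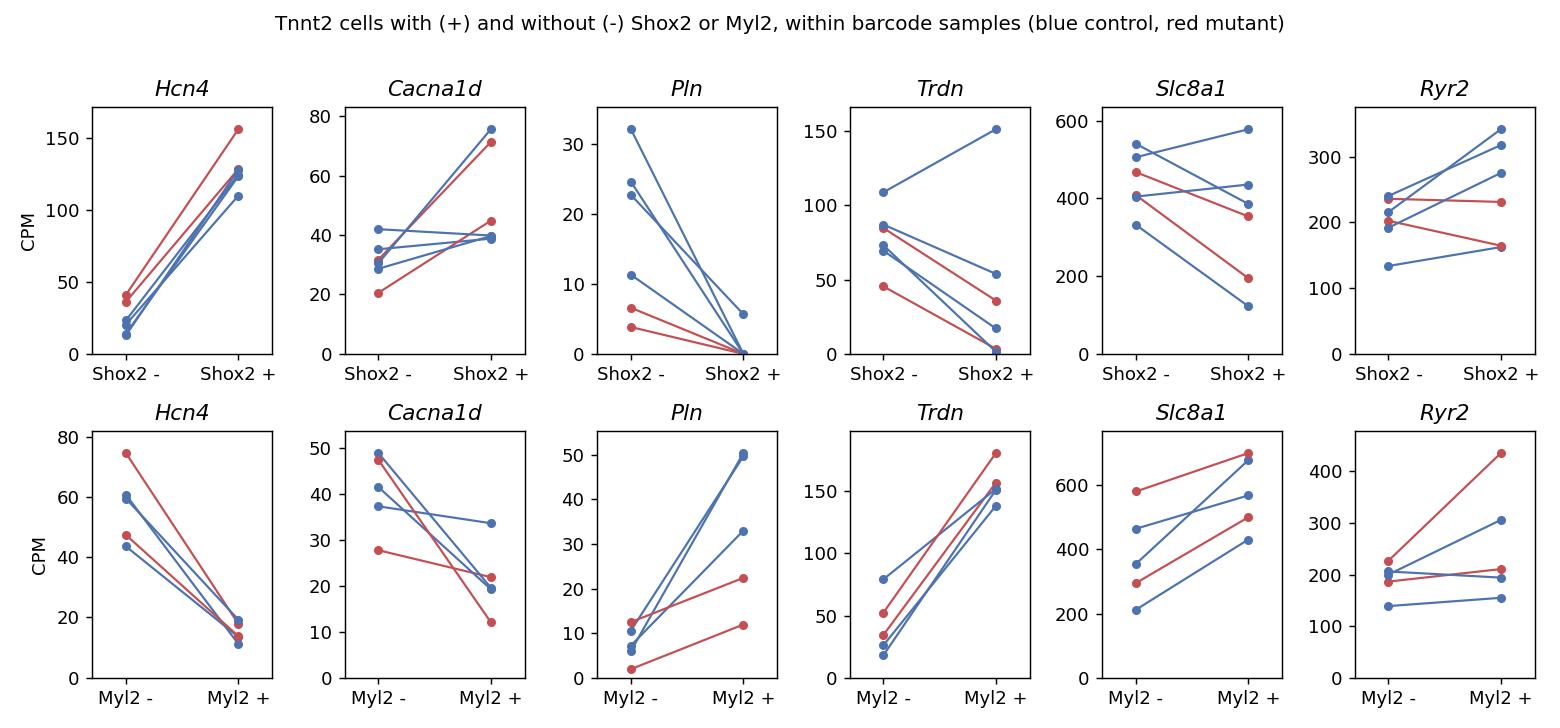
Level (CPM) of 6 members in Tnnt2 cells of the same barcode sample without (-) and with (+) a Shox2 UMI (top, 6 samples) or at least 5 Myl2 UMIs per 10000 (bottom, 5 samples), with a line joining the sides of a sample (blue control, red mutant). Hcn4 rises in all 6 Shox2 pairs and falls in all 5 Myl2 pairs, and Pln and Trdn rise in all 5 Myl2 pairs.

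In the 6 samples with at least 10 cells on each side of the Shox2 division, 4 of 8 members passed, Pln among them, against 8.71% of all genes. Hcn4 had 156, 124, 129, 125, 128 and 110 CPM in the Shox2 cells of Bar27, Bar3, Bar1, Bar22, Bar23 and Bar9, and 41.0, 14, 36.2, 23.3, 12.9 and 20.4 CPM in their other Tnnt2 cells. The sides were far apart in every sample, at 129 ± 15.2 against 24.6 ± 11.6 CPM (log2 2.36, SE 0.19, edgeR adjusted p = 2.19e-07). The 6 samples were the E8.0 mutant Bar27, the E8.5 control Bar3 and mutant Bar1, and the E9.5 controls Bar22, Bar23 and Bar9. Hcn4 in their Shox2 cells lay between 110 and 156 CPM. With no E8.0 control and no E9.5 mutant, stage and genotype cannot be told apart here.

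Pln was nearly confined to the cells without Shox2 in these samples, with 2 UMIs on the Shox2 side, both in Bar22, and 149 on the other. The pooled ratio of the levels was 0.0550 (exact 95% interval 0.00660 to 0.202, counting error only). Pln passed the low-count filter only through the side where it was high, so its call is no support for the difference: with the filter by group size, and in thinned cells, it was not tested. Trdn was lower with Shox2 in 5 of 6 samples (1.44 to 151 CPM against 45.4 to 109, log2 -1.44, SE 0.37, edgeR adjusted p = 0.0186), and Bar9 went the other way with 151 against 109 CPM. Slc8a1 was lower in 4 of 6 (345 ± 165 against 443 ± 76.3 CPM, log2 -0.58, SE 0.16, edgeR adjusted p = 0.0294). The call of Slc8a1 was lost without Bar3, Bar1 or Bar22 and that of Trdn without Bar3, Bar1 or Bar23. With DESeq2 both calls were lost (Trdn -1.90, adjusted p = 0.110; Slc8a1 -0.57, adjusted p = 0.0892), and with the low-count filter by group size that of Slc8a1 (-0.56, adjusted p = 0.0549). Ryr2, Atp2a2, Cacna1c and Cacna1d did not pass (log2 0.19, 0.32, -0.82 and 0.55).

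Shox2 cells held less Tnnt2, with medians of 10.5 to 28.4 UMIs per 10000 against 38.0 to 55.4. Among cells of 5 to under 30 Tnnt2 UMIs, in 8 samples with at least 5 cells on each side (an alternative chosen after seeing the data), Hcn4 was again higher with Shox2, by 2.29 (edgeR adjusted p = 2.46e-05). Slc8a1 changed sign to 0.58 (adjusted p = 0.0190), Atp2a2 was 0.83 (adjusted p = 0.000894) and Ryr2 0.66 (adjusted p = 0.0305), all higher with Shox2. Pln, Trdn and Cacna1c were too low to be tested there.

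Between genotypes, Ryr2 was the one member called by the edgeR test in Tnnt2 cells. It was higher in the Wls fl/fl mutants by 0.46 on the log2 scale (SE 0.08, edgeR adjusted p = 0.00597), 1 of 8 members tested against 1.38% of all 11691 genes. The E8.0 means were 189 ± 36 CPM in controls and 245 ± 36.3 in mutants (n = 3 each) and the E9.5 means 213 ± 34.1 and 318 ± 56.1 (n = 5 each). At E9.5 the groups just failed to overlap. The highest control was Bar22 at 253 CPM and the lowest mutant Bar8 at 254 CPM. At E8.0 the groups overlapped. How many of all genes separate at E9.5 was not counted, so the separation is a description only. Slc8a1 was 0.36 (SE 0.10, edgeR adjusted p = 0.0865), Trdn 0.47 (SE 0.19, adjusted p = 0.256), Cacna1c 0.45 (SE 0.18, adjusted p = 0.242) and Pln 0.37 (SE 0.34, adjusted p = 0.677). Atp2a2 (0.23), Hcn4 (0.20) and Cacna1d (-0.24) did not pass either. Slc8a1 was called with DESeq2 (0.37, adjusted p = 0.0350), without a low-count filter (0.34, edgeR adjusted p = 0.00690) and without the E8.0 control Bar26 (0.42, adjusted p = 0.0206), and Trdn without a low-count filter (0.44, adjusted p = 0.0314).

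The Ryr2 difference was called whichever sample was left out (0.43 to 0.50, edgeR adjusted p from 0.00102 to 0.0447). Mutant Tnnt2 cells also held more Tnnt2 (sample medians averaged 39.5 ± 1.55 against 29.5 ± 4.03 UMIs per 10000 at E8.0 and 46.4 ± 7.35 against 37.5 ± 9.26 at E9.5) and more often Myl2 (19.4 ± 3.15% against 10.3 ± 7.74%, and 50.8 ± 10.7% against 37.9 ± 14.1%). In cells of 20 or more Tnnt2 UMIs per 10000 Ryr2 was 0.35 and did not pass (adjusted p = 0.0759). In alternatives chosen after seeing the data, within the Myl2 cells it was 0.60 (9 mutants against 5 controls, edgeR adjusted p = 0.00249). In the other Tnnt2 cells it was 0.39 (6 mutants against 8 controls, adjusted p = 0.190), where 2 of 11021 genes were called. The Myl2 fit held no E8.0 control. The samples differ between the 2 fits, so their values cannot be set against each other. The part of Tnnt2 content and Myl2 share in the difference was not tested beyond these fits. Male cells made up 87.7 to 89.4% in the E8.0 mutants and 17.2 to 52.2% in the E8.0 controls; with the percentage of male cells as a covariate Ryr2 was 0.45 (adjusted p = 0.0444). Within run 1 it was 0.47 (adjusted p = 0.131), within run 3 0.41 (adjusted p = 0.643), and run 2 held too few samples for a fit.

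By stage, no member passed at E8.0 in Tnnt2 cells (7 tested, 0.0505% of all genes called), where Ryr2 was 0.36 (SE 0.15, edgeR adjusted p = 0.992). At E9.5 Ryr2 alone passed, at 0.53 (SE 0.11, adjusted p = 0.00825), among 3.75% of all genes, and the call was lost without the control Bar22 (adjusted p = 0.0633) or Bar23 (adjusted p = 0.0749). Pln was 0.80 (SE 0.32, adjusted p = 0.188). The difference between the stages in the genotype effect, tested as an interaction, passed for 0 of 8 members and 0.108% of all genes. For Ryr2 it was 0.16 (SE 0.18, adjusted p = 0.836) and for Hcn4 -0.53 (SE 0.28, adjusted p = 0.600).

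Over all cells, 5 of 8 members were higher in the mutants, against 10.2% of all 20831 genes. They were Ryr2 (log2 0.73, SE 0.15, edgeR adjusted p = 0.00522), Cacna1c (0.70, SE 0.17, adjusted p = 0.0111), Slc8a1 (0.78, SE 0.20, adjusted p = 0.0155), Trdn (0.97, SE 0.28, adjusted p = 0.0300) and Hcn4 (0.53, SE 0.17, adjusted p = 0.0475). At E8.0 the Ryr2 levels over all cells were 16.6, 24.2 and 31.3 CPM in the controls and 38.0, 36.3 and 40.8 in the mutants. Hcn4 was 3.33, 6.10 and 6.19 CPM against 9.22, 10.5 and 9.20. At E8.0 all mutants lay above all controls for Ryr2, Hcn4, Cacna1c, Slc8a1 and Trdn, and also for Tnnt2 and Myl2. For Atp2a2, Cacna1d, Pln and Casq2 the E8.0 groups overlapped. At E9.5 the groups overlapped for each of these genes. The share of all genes with such a separation at E8.0 was not counted, so it is a description only. Markers of other cells moved with genotype over all cells as well. The 4 smooth muscle markers summed to 286 to 485 CPM in the E8.0 controls and 639 to 705 CPM in the mutants, which did not overlap, and to 14.9 to 1086 and 264 to 1693 CPM at E9.5. The 5 blood markers had lower means in the mutants, 10492 against 18016 CPM at E8.0 and 87752 against 111583 CPM at E9.5, with overlapping samples. Their part in the all-cell differences was not tested.

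The share of Tnnt2 cells moved with genotype too. It averaged 13.5 ± 2.19% in mutants against 10.1 ± 3.95% in controls at E8.0 (n = 3 each), 15.4% in 1 sample against 3.60% in 2 at E8.5, and 8.29 ± 4.65% (n = 6) against 7.61 ± 3.95% (n = 5) at E9.5, leaving out Bar6 with 0 of 6 cells because samples needed at least 20 cells. Averaged over the 5 combinations of stage and run the difference was 0.62 in log2 odds (two-sided exact permutation test over samples, p = 0.0238). With the threshold at 10 Tnnt2 UMIs per 10000 it was 0.60 (exact permutation p = 0.0554). The part of this share in the all-cell differences was not tested beyond 1 fit. When the Tnnt2 cells were left out of the sums, 1615 of all 20401 genes passed but none of the 5 members. Ryr2 was 0.25, Slc8a1 0.42, Cacna1c 0.52, Trdn 0.28 and Hcn4 0.28. With each of the 22 samples left out in turn, Hcn4 lost its call in 16 fits (0.39 to 0.62 over all 22), Trdn in 8 (0.70 to 1.12; without Bar24, Bar27, Bar3, Bar1, Bar23, Bar9, Bar20 or Bar8) and Slc8a1 in 1 (0.58 without Bar1), while Ryr2 and Cacna1c were called in all 22.

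None of the 8 members passed over all cells at E8.0 (edgeR adjusted p of 0.496 or more, 0.0244% of all genes called), nor in the interaction (0.464% of genes). At E9.5, where 10.3% of genes passed, Ryr2 (0.61, SE 0.18, adjusted p = 0.0498) and Pln (0.91, SE 0.27, adjusted p = 0.0489) were just past the threshold, and 10 of the 12 fits that each left out a sample lost at least 1 of them. With DESeq2 Ryr2 did not pass (adjusted p = 0.0980) and Cacna1c did (0.56, adjusted p = 0.0323).

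Other genes of the same machinery were counted by list. In Tnnt2 cells from E8.0 to E9.5, where 24.0% of all 10842 genes passed and 1547 of them rose, 5 of 9 tested release and storage genes rose and 1 fell, 3 of 6 pump regulators rose, and 4 of 9 surface channel and extrusion genes rose. Of the pacemaker and conduction channels 3 of 7 rose. Among 6 listed transcription factors (Shox2, Tbx3, Tbx18, Isl1, Tbx5 and Nkx2-5) 2 rose and 1 fell. Cacna1h, a pore of the T-type calcium channel, had a log2 change of 3.83 (SE 0.32, edgeR adjusted p = 2.29e-08), from 1.61 ± 1.46 to 24.6 ± 11.6 CPM, and Sln, sarcolipin, a pump inhibitor of the atria, 3.81 (SE 0.79, adjusted p = 0.000925), from 0.315 ± 0.488 to 5.32 ± 5.21 CPM. The Cacna1h value rests on 18 UMIs at E8.0 and 212 at E9.5. The Sln value rests on 4 UMIs at E8.0, with 4 of 6 samples at 0, and 66 at E9.5, of which 35 were in Bar22. Both genes passed the low-count filter only through later samples, where they were high, so their calls are no support for a rise. The counts and medians by list include them, Sln among the pump regulators and Cacna1h among the surface genes. Gja5, the gap junction protein connexin 40, rose by 2.71 (SE 0.60, adjusted p = 0.00161). Tbx5, a factor of the inflow and atria, fell by 0.69 (SE 0.14, adjusted p = 0.000689), and Itpr1, an inositol trisphosphate receptor, fell by 0.39 (SE 0.14, adjusted p = 0.0387). The list medians were 0.60, 0.37, 0.55, 0.44 and 0.19 in that order, beside -4.82e-05 for all genes.

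With Myl2, S100a1, a regulator of calcium release, was higher by 2.13 (SE 0.22, edgeR adjusted p = 7.99e-07), Kcnj5, a subunit of the acetylcholine-gated potassium channel, by 1.49 (SE 0.30, adjusted p = 0.00125) and Casq1 by 1.22 (SE 0.20, adjusted p = 0.000190). Shox2 (-6.83), Sln (-3.24) and Isl1 (-2.89), a factor of the sinus node, were lower. Shox2 had 3 UMIs with Myl2 and 763 without. It passed the low-count filter only through the side where it was high, so its call is no support. Sln had 35 UMIs in Bar22, both sides together, and 1 to 10 in each of the other samples, so its value is a description only. With Shox2, Tbx18 (4.22, SE 0.32, edgeR adjusted p = 1.14e-07) and Tbx5 (1.15) were higher. Casq1 (-1.95), Nkx2-5 (-1.58) and Cacnb2, a calcium channel subunit (-1.53), were lower.

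Between genotypes in Tnnt2 cells, where 1.38% of all genes passed, 1 of 10 release and storage genes was called and none of the 7, 9, 7 and 6 tested in the other lists. It was Srl, sarcalumenin, a calcium-binding protein of the store (log2 0.75, SE 0.18, edgeR adjusted p = 0.0381). At E9.5 alone, where 3.75% of all genes passed, Srl (0.96) and Asph (0.72) of 9 release genes, Camk2d (0.68) of 6 pump regulators and Cacna1h (1.04) of 8 surface genes were called. Over all cells, where 10.2% of all 20831 genes passed and 931 were higher in mutants, 5 of 13 release and storage genes and 3 of 12 surface genes were higher, led by Cacna1h (1.07), Hrc (0.90) and Cacna2d2 (0.79).

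The genes whose level followed a member most closely over the 18 samples of Tnnt2 cells were sought among 11691 genes, by Pearson correlation of log2(CPM + 1). For Ryr2 they were Cox4i2 (0.87), mt-Co1 (0.87) and Gys1 (0.87), for Atp2a2 they were 2810410L24Rik (0.80), Enox1 (0.80) and Insig1 (0.79), and for Hcn4 they were Lins1 (0.83), Brip1 (0.82) and Vps26b (0.82). The samples share stages, runs and depth, and these values are descriptions only.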

How the data were processed

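Sorted tdTomato-positive cells were profiled by 10x Chromium v3 single-cell RNA-seq with MULTI-seq barcodes. Per the labels' protocols, reads were processed with kallisto and bustools and cells were assigned to barcodes, and the authors deposited raw UMI counts per gene and cell; the submitters' processing notes name GRCm38, kallisto, bustools 0.46.1 and Cell Ranger without their roles. Stage, genotype, barcode and run came from the deposited per-cell table. The members and gene lists were chosen with earlier results of these data known, and the promoter motifs after the data were seen.

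Counts were summed per barcode sample and fitted with edgeR 4.0.16 (TMM, quasi-likelihood test, Benjamini-Hochberg adjustment over all genes, threshold 0.05) in R 4.3.3. The genotype fits had stage, run and genotype as terms, and the Myl2 and Shox2 fits had the barcode sample as a block. Standard errors are the absolute log2 change divided by the square root of F. Low counts were filtered with filterByExpr on the design matrix, a choice made after results with filtering by group size had been seen; the latter is given as an alternative. DESeq2 1.42.0 was another alternative. Shares used exact binomial and levels exact Poisson intervals, covering counting error only. Doublets were not called again. Other genes named are the 3 of the lists with the largest change past the threshold in each direction in each comparison. Some genes that meet this rule are not reported here. On simulated counts with 200 changed genes the genotype fit recovered 73% at a log2 change of 1 in all cells (19464 genes) and 78% in Tnnt2 cells (11007 genes). False calls were 16 and 6. The simulated samples had no stage or run effects and changes of 1 or 2 only. The recovery therefore says nothing about smaller changes, such as those of the members between genotypes in Tnnt2 cells. Promoters from RefSeq matched 7 of the 9 members.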

Additional observations from a re-analysis of the deposited data

Results flagged for a closer look

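Of 36 groups of 4 to 10 samples tested for a sample far from the rest, 3 held such a sample. Chance gives about 1 in 20 groups for continuous values, which counts of 1 UMI are not. Cacna1c in the Tnnt2 cells of the E9.5 control Bar7 was 41.6 CPM (12 UMIs in 23 cells), against 28.6 to 31.8 CPM in the other controls. Cacna1d over all cells of the E9.5 control Bar6 was 7.44 CPM, which is 1 UMI in 6 cells, against 2.61 to 4.25 CPM. Casq2 over all cells of the E9.5 mutant Bar8 was 0.534 CPM, 1 UMI in 168 cells, against 0 to 0.180 CPM.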

How the results depend on the processing

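Alternatives were fitted one at a time; each call is an edgeR adjusted p under 0.05 unless DESeq2 is named, and the cause of each change was not tested. Counts such as 1 of 18646 in brackets are the genes called of all genes tested in that fit. Where few genes were called, a count of 0 members says little about the members. Over all cells the 5 members called between genotypes became 0 without E9.5 (1 of 18646), 3 without E8.0 (2463 of 20304) and 2 without E8.5 (1455 of 20401). They became 0 within run 1 (2 of 17577), run 2 (27 of 12966) and run 3 (57 of 11838). Without the Tnnt2 cells they were 0 (1615 of 20401), and in cells thinned to 5000 UMIs 2 (1332 of 15412). With each sample left out they ranged from 2 (without Bar1) to 5, with 3 of them without Bar24, Bar27, Bar3, Bar9, Bar20 or Bar8. The 2 members called at E9.5 ranged from 0 to 2 in fits that called 603 of 17994 genes (without Bar23) to 2353 of 17914 (without Bar20). They were 0 without Bar22, Bar23, Bar9, Bar10 or Bar19 and 1 without Bar4, Bar5 or Bar8. Without Bar6 or Bar21 the 2 were Ryr2 and Cacna1c, in place of Pln. In Tnnt2 cells the 1 member called became 2 with DESeq2 (282 of 11691) and 3 without a low-count filter (460 of 27075). It became 0 without E9.5 (1 of 10637), within run 1 (7 of 10526) and within run 3 (9 of 4931). At 20 or more Tnnt2 UMIs per 10000 it was 0 (81 of 10981), and in cells under 5 Myl2 UMIs 0 (2 of 11021). With each sample left out it ranged from 1 to 2 (without Bar26, 388 of 12029). At E9.5 it ranged from 0 (without Bar22, 116 of 8813, or Bar23, 125 of 8799) to 1. The 7 members called between stages became 4 in cells under 5 Myl2 UMIs, 2 in those with more and 4 at 20 or more Tnnt2 UMIs. The 6 called with Myl2 became 3 at 20 to under 50 Tnnt2 UMIs, and the 4 called with Shox2 became 2 with thinning (Pln and Trdn not tested), DESeq2 or the filter by group size (Pln not tested) and ranged from 2 (without Bar3) to 5. At 10 Tnnt2 UMIs per 10000 the log2 odds of a Tnnt2 cell were 0.595 (exact permutation p = 0.0554).

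These log2 changes turned sign, none of them called in the main result except where said. Between genotypes over all cells, Atp2a2 was -0.0844, Pln -0.0686 and Cacna1d -0.0537 without the Tnnt2 cells, and Cacna1d was -0.0898 without E8.0 and -0.206 within run 3. At E9.5, Atp2a2 was -0.00728, -0.0131 and -0.0728 without Bar7, Bar9 and Bar8, and Hcn4 -0.0170 without Bar20. In the interaction, Ryr2 was -0.0559 with DESeq2 and -0.00298, -0.174 and -0.0267 without Bar26, Bar29 and Bar27, Pln -0.141 without Bar26 and Slc8a1 0.00663 without Bar24. Slc8a1 between stages was -0.412 with run as a term and -0.410 within run 1. In Tnnt2 cells Pln was -0.485 without E9.5 and -0.00143 at 20 or more Tnnt2 UMIs, and Cacna1d 0.0835 in thinned cells. At E8.0 Cacna1d was -0.0238, -0.0205, -0.0884 and -0.0493 without Bar26, Bar29, Bar25 and Bar28. At E9.5 Cacna1c was -0.0642 without Bar20, and Hcn4 0.0174 and 0.0294 without Bar22 and Bar20. In the interaction Atp2a2 was 0.000454 with DESeq2, 0.00642 with the filter by group size and 0.103, 0.0145, 0.0163 and 0.110 without Bar24, Bar29, Bar27 and Bar28. Slc8a1 there was 0.148, 0.00482, 0.0230 and 0.0171 without the same samples, and Pln -0.261 without Bar26. Between stages, Cacna1c was -0.541 with Myl2 and Hcn4 0.164 under 5 Myl2 UMIs, both called in the main result. With Myl2, Atp2a2 was -0.0739 and Cacna1c -0.558 at 20 to under 50 Tnnt2 UMIs, and Cacna1c -0.260 at 20 or more Myl2 UMIs and -0.101 without Bar1. With Shox2, Slc8a1, called in the main result, was 0.584 at 5 to under 30 Tnnt2 UMIs.

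Leaving out samples was not run for the stage comparisons, and for the interactions it was run for the E8.0 samples. The Myl2, Shox2 and myogenic-cell restrictions, the filter by group size and the matched Tnnt2 ranges were chosen after seeing the data. No paired analysis was possible because barcode numbers differ between genotypes and stages; the Myl2 and Shox2 divisions alone compare cells within a barcode sample. Casq2 had 50 UMIs in all.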

Other observations

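The single E7.5 control sample, 28 cells, entered no comparison of stages. It was mostly blood: 19 of the 28 cells were globin-rich, 1 was a Tnnt2 cell, and blood markers summed to 270793 CPM. It held 20 UMIs of Atp2a2 (40.3 CPM, exact 95% Poisson interval 24.6 to 62.2) and 1 UMI each of Cacna1c and Cacna1d (2.01 CPM). Ryr2, Trdn, Casq2, Pln, Slc8a1 and Hcn4 had 0 UMIs there, which allows up to 7.43 CPM by the same interval. Tnnt2 had 6 UMIs (12.1 CPM).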
